A study of Mus musculus with 6 samples.

Results

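Genes that convert steroid hormones, and the receptors that read those hormones, were followed in primary renal tubular epithelial cells (PTECs) of mice. The members were chosen by symbol: Hsd11b1, Hsd11b2, Srd5a1, Srd5a2, Srd5a3, Akr1c21, Nr3c1 and Nr3c2, which are 8 of the 46095 genes in the count table. All 8 were among the 14611 genes with enough counts to be tested. They were picked with results of the genotype contrast known, so their differences between genotypes are described here and carry no test of their own.

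Cells were freshly isolated from mice at 10 weeks of age on a C57 background. The VHL-KO label covers 3 libraries, numbered 1, 2 and 4, and the VHL-KO;SETD2-KO label covers 3, numbered 2, 3 and 4, each from its own mouse. Both genotypes carried floxed VHL and the KspCre transgene, in which the Cdh16 promoter drives Cre recombinase in tubular epithelium, and the second genotype also carried floxed Setd2. No group was labelled as having intact VHL, Vhl itself had 139 to 317 counts in the 6 libraries, and the sex of the sequenced mice was not given in the sources used here.

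Glucocorticoids and mineralocorticoids act through closely related nuclear receptors, and enzymes inside each cell set how much active hormone reaches them. Type 1 11-beta-hydroxysteroid dehydrogenase regenerates active corticosterone, whereas type 2 inactivates it and so keeps the mineralocorticoid receptor of the distal nephron free for aldosterone. The 5-alpha-reductases turn testosterone into the stronger androgen dihydrotestosterone, and the proximal tubule of male mice is known for a large set of androgen-responsive genes.

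Library totals ranged from 11168552 to 17883466 counts, and a floor of 3 counts equalled 0.168 to 0.269 CPM (counts scaled to library size), which covers counting error only. The floor was scaled to these totals without the TMM factors that enter all other CPM values. Setd2 was detected at 1179, 799 and 132 counts for VHL-KO 1, 2 and 4, and at 1499, 1019 and 1429 for VHL-KO;SETD2-KO 2, 3 and 4. In CPM the labels overlapped for Setd2, at 71.3, 73.8 and 12.3 against 79.5, 57.3 and 89.5. The deleted gene was thus not seen to be lower under the label that names its deletion, and every direction given here is one between labels. Counts per gene cannot separate the floxed part of Setd2 from its other exons. VHL-KO replicate 4 stood apart, with rank correlations across genes of 0.717 to 0.765 to the other libraries, against 0.937 to 0.986 among those. VHL-KO;SETD2-KO replicate 3 had 11704 counts of Xist, the RNA of the inactive X chromosome, and 1 count over 4 Y-linked genes, the pattern of a female. The other 5 libraries had at most 4 counts of Xist and at least 260 Y-linked counts, the pattern of males.

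Markers of kidney cell types also differed between the labels. Summed over 10 proximal tubule markers, the level was 13180 to 28370 CPM in VHL-KO libraries and 6034 to 9296 CPM in VHL-KO;SETD2-KO libraries, without overlap. Of the 10, edgeR called 4 lower and 0 higher, where 4.68% and 2.66% of all tested genes were. Without VHL-KO;SETD2-KO replicate 2 or 4 it called 1 lower, where 1.37% and 1.78% of tested genes were. The 5 podocyte markers summed to 1435 to 2085 CPM and 1967 to 4828 CPM, and the 6 endothelial markers to 866 to 1851 CPM and 1336 to 4321 CPM, so RNA of glomerular cells was present in every library. In bulk samples fewer cells of a type and less RNA per cell cannot be told apart. Of 6 adrenal cortex markers, Cyp11b1, Cyp11b2, Cyp21a1 and Mc2r had 0 counts in all libraries, and the list summed to at most 1.46 CPM.

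Hsd11b1, Srd5a1 and Srd5a2 were lower in VHL-KO;SETD2-KO libraries and Nr3c2 was higher, each with no overlap of 3 libraries against 3. Over all tested genes 11% were lower and 9.62% higher without overlap. At an unadjusted p under 0.05 from edgeR's quasi-likelihood test and a fold change of at least 1.5, the thresholds of the study's methods, 3 members were called lower and 0 higher, where 4.68% of tested genes were lower and 2.66% higher. DESeq2 and limma-voom called the same 3 members lower, where 7.75% and 3.33% of tested genes were lower. After Benjamini-Hochberg adjustment 0 members passed in edgeR or limma-voom, each with 0.00684% of tested genes lower. DESeq2 gave an adjusted p only for Akr1c21 (0.276). For the other members its value was missing, so it does not say whether they passed. Since this contrast had a part in choosing the members, nothing is read from these counts.

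**Figure D1:**
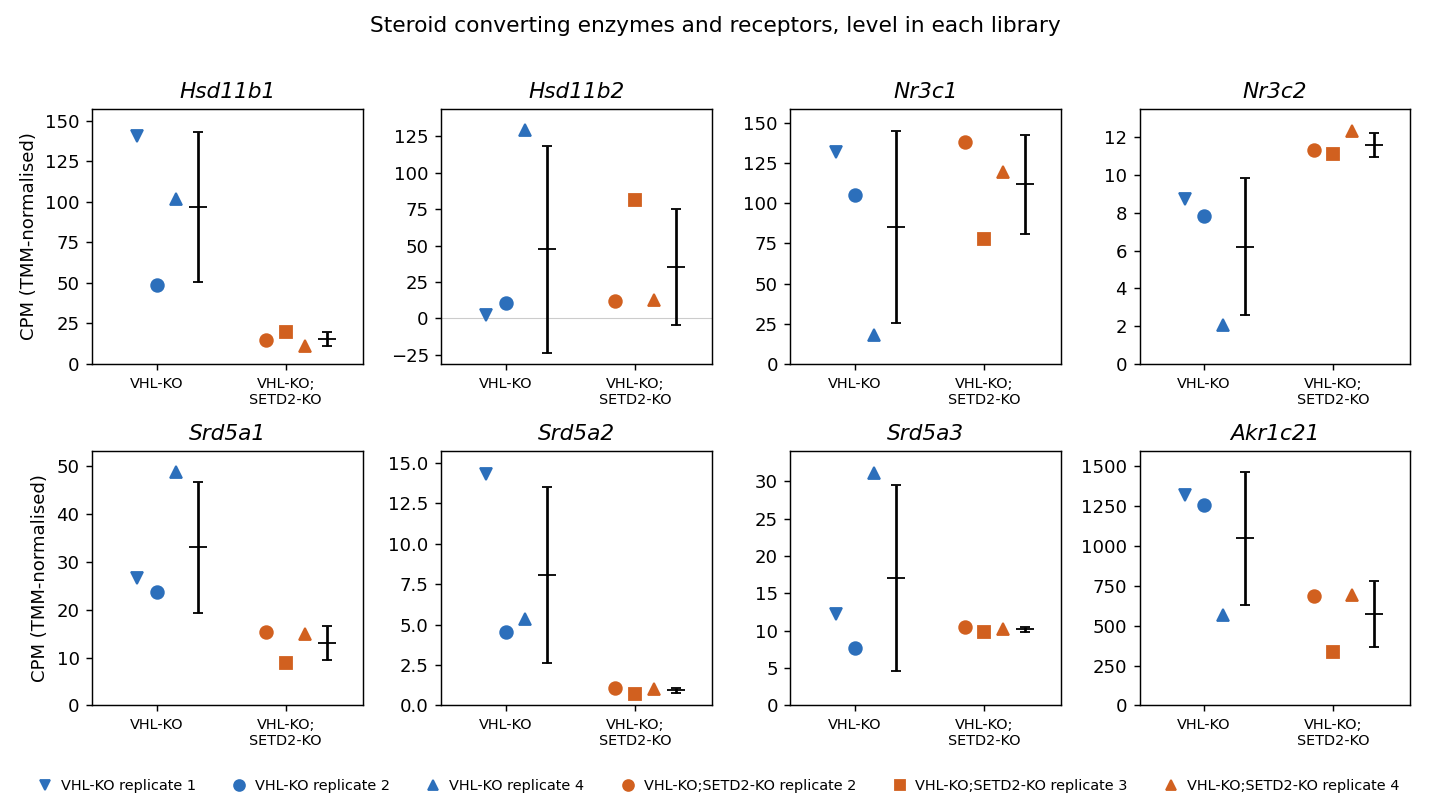
Level of each member in CPM with TMM-normalised library sizes, 1 point per library, with the mean ± SD of each label (n = 3) beside the points and a separate axis for each gene. The labels do not overlap for Hsd11b1, Srd5a1 and Srd5a2, which are lower in VHL-KO;SETD2-KO, or for Nr3c2, which is higher, and Hsd11b2 is high in 1 library of each label.

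The stretches before the starts of these 4 genes are shown because their levels did not overlap between the labels. Each line holds the 250 bases before a start listed by RefSeq on GRCm38.p6 and reads along the gene's strand. The listed starts of Hsd11b1 and Nr3c2 lie inside the span of the gene, at one of several starts. That of Srd5a1 also lies inside, since the gene reaches to 69611485 and its stretch begins at 69611464. Capitals mark the core letters bound by hypoxia-inducible factors, ACGTG or GCGTG on either strand, which were searched because VHL, floxed in both genotypes, normally marks these factors for degradation.
Hsd11b1, chr1:193242361-193242610, minus strand: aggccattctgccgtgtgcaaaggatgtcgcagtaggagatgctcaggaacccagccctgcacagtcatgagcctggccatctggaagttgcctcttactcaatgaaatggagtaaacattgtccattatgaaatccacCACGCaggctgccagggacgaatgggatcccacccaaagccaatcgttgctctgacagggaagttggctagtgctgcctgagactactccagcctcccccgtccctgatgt
Srd5a1, chr13:69611464-69611713, minus strand: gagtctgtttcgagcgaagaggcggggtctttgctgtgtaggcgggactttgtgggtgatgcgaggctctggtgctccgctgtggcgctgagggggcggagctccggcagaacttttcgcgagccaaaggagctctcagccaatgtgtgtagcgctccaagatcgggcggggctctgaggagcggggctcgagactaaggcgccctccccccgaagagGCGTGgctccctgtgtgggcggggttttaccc
Srd5a2, chr17:74047861-74048110, minus strand: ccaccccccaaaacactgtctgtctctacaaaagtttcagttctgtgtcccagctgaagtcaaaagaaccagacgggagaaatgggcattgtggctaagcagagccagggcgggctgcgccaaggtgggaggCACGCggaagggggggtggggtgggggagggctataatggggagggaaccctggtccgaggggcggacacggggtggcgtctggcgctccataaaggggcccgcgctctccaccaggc
Nr3c2, chr8:76902080-76902329, plus strand: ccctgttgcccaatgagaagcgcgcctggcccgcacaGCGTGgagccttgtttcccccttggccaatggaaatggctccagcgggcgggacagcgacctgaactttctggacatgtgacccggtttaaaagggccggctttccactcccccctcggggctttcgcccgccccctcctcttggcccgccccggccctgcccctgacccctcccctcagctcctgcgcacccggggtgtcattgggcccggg
Counted from the start, the core began at position -111 in Hsd11b1, -32 in Srd5a1, -118 in Srd5a2 and -213 in Nr3c2. The search covered 250 bases before to 50 after each start. All 6 members with an entry held a core, as did 43.8% of the 32851 listed promoters, and in Akr1c21 and Srd5a3 the matches on the opposite strands overlapped. The hexamer recognised by the glucocorticoid and mineralocorticoid receptors, AGAACA on either strand, was in 0 of the 6 and in 19% of all promoters. These are matches of letters in a window and carry no information on binding.

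Per length, Akr1c21 stood far above the other members. With CPM divided by the length of the longest annotated transcript, Akr1c21 had 256.2 to 1011 CPM per kilobase and was above every other member in all 6 libraries. The medians of the level per kilobase were 529.9 CPM for Akr1c21, 17.4 for Nr3c1, 17.3 for Hsd11b1, 7.36 for Srd5a1, 6.61 for Hsd11b2, 4.68 for Srd5a3, 1.74 for Srd5a2 and 1.68 for Nr3c2. Below Akr1c21 the ranges of all neighbours in this order overlapped. Nr3c1 was above Hsd11b1 in 3 of 6 libraries, for example, and Srd5a2 above Nr3c2 in 3 of 6.

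Hsd11b1 (chromosome 1, 193221640 to 193264045 on GRCm38.p6), the enzyme that reactivates corticosterone, had 140.4, 48.6 and 101.6 CPM in VHL-KO replicates 1, 2 and 4. It had 14.9, 19.8 and 11.1 CPM in VHL-KO;SETD2-KO replicates 2, 3 and 4. The lowest VHL-KO library was above the highest library of the other label. The means were 96.8 ± 46.1 and 15.3 ± 4.36 CPM (SD, n = 3 each), and the fitted log2 fold change was -2.67 (standard error 0.52), a 6.34-fold lower level. Leaving out each library in turn gave -2.98 to -2.28. H6pd, which encodes hexose-6-phosphate dehydrogenase and supplies the reduced cofactor that the type 1 enzyme uses in the endoplasmic reticulum, was called lower too. Its level was 144.7, 117.1 and 259 CPM against 62.4, 74.0 and 73.8 CPM, a log2 fold change of -1.31 (standard error 0.44).

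Hsd11b2 (chromosome 8, 105518746 to 105523988), the inactivating enzyme, did not follow the genotype label. It had 2.48, 10.4 and 129.2 CPM in VHL-KO replicates 1, 2 and 4 and 11.7, 81.3 and 12.6 CPM in VHL-KO;SETD2-KO replicates 2, 3 and 4. VHL-KO replicate 4 and VHL-KO;SETD2-KO replicate 3 were high and the other 4 libraries low. Its log2 fold change of -0.43 (standard error 1.31) turned to 2.48 without VHL-KO replicate 4 and was -1.93 without VHL-KO;SETD2-KO replicate 3. The summed markers of collecting duct principal cells, where Hsd11b2 is normally expressed, were high in the same libraries, but not each marker was. Aqp2 alone had 257.2 CPM in VHL-KO replicate 4 and 53.8 CPM in VHL-KO;SETD2-KO replicate 3. Aqp4 had 3.36 and 4.16 CPM there, and was highest in VHL-KO;SETD2-KO replicate 4 at 7.45 CPM. In VHL-KO;SETD2-KO replicate 3, Aqp3 and Fxyd4 had 43.1 and 3.65 CPM, little above 38.2 CPM in VHL-KO replicate 1 and 3.14 CPM in VHL-KO replicate 2. Summed over 7 markers, the level was 489 CPM in VHL-KO replicate 4 and 209 CPM in VHL-KO;SETD2-KO replicate 3, against 52.7 to 70.8 CPM in the other 4. The part of these markers in the Hsd11b2 levels was not tested. The genes with the profile nearest to Hsd11b2 were Avpr2, the vasopressin receptor of the collecting duct, Cldn3, a tight junction claudin, and Aqp6, a water channel of intercalated cells. Their root mean square differences from it in centred log2 CPM over the 6 libraries were 0.304, 0.363 and 0.369, the smallest among 12399 genes compared.

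The balance of the type 1 and type 2 enzymes differed widely between libraries. Per length, the level of Hsd11b1 was 52.6 times that of Hsd11b2 in VHL-KO replicate 1 and 4.33 times in replicate 2. The ratio was 0.731 in VHL-KO replicate 4, and 1.18, 0.226 and 0.819 in VHL-KO;SETD2-KO replicates 2, 3 and 4. With median transcript lengths these ratios ran from 0.357 to 82.9, and that of VHL-KO replicate 4 was 1.15.

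Nr3c1 (chromosome 18, 39410545 to 39519421), the glucocorticoid receptor, had 131.9, 104.9 and 17.8 CPM in VHL-KO replicates 1, 2 and 4. It had 138.0, 77.7 and 119.3 CPM in VHL-KO;SETD2-KO replicates 2, 3 and 4. VHL-KO replicate 4 was far below the other 5 libraries, which overlapped between labels. The log2 fold change of 0.40 (standard error 0.68) turned to -0.09 without that library. The nearest profiles were those of Trdmt1, at a root mean square difference of 0.0775, Ing3 and Mterf2.

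Nr3c2 (chromosome 8, 76898083 to 77245012), the mineralocorticoid receptor, had 8.71, 7.85 and 2.05 CPM in VHL-KO and 11.4, 11.1 and 12.3 CPM in VHL-KO;SETD2-KO libraries. All 3 libraries of the second label were above each of the first. The means were 6.21 ± 3.62 and 11.6 ± 0.642 CPM (SD, n = 3 each), and the log2 fold change was 0.90 (standard error 0.55), which did not pass the unadjusted threshold. It was 0.48 without VHL-KO replicate 4, the library with the lowest level, and up to 1.23 without the others. Per length, the level of Nr3c1 was 6.42 to 13.9 times that of Nr3c2, or 11.3 to 24.6 times with median transcript lengths. The nearest profiles were those of Ttc39b, at 0.0614, Fubp1 and Ahi1.

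**Figure D2:**
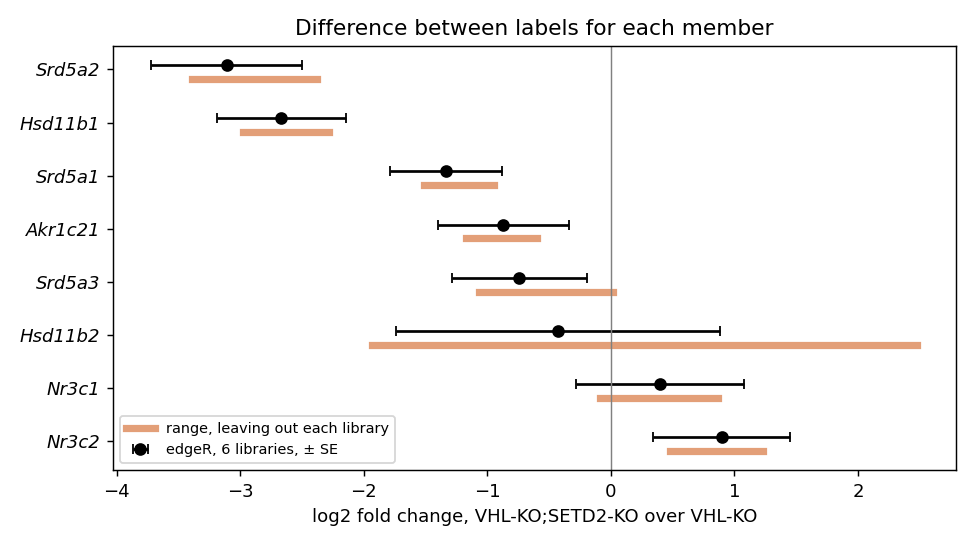
Fitted log2 fold change of each member, VHL-KO;SETD2-KO over VHL-KO, from edgeR with 6 libraries (points, bars ± standard error), and the range over fits that each omit 1 library (orange). Hsd11b1, Srd5a1, Srd5a2 and Akr1c21 stay below 0 and Nr3c2 above 0, while Hsd11b2 spans -1.93 to 2.48.

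Srd5a2 (chromosome 17, 74014891 to 74047860), a 5-alpha-reductase of testosterone, had the largest fold change of the 8 members. It had 14.3, 4.52 and 5.32 CPM in VHL-KO replicates 1, 2 and 4 and 1.06, 0.731 and 1.00 CPM in VHL-KO;SETD2-KO replicates 2, 3 and 4. The labels were well apart, but these levels rest on 237, 49 and 57 counts against 20, 13 and 16. This was a log2 fold change of -3.11 (standard error 0.61), an 8.62-fold lower level, and leaving out each library gave -3.39 to -2.38. Srd5a2 and Hsd11b1 were among the 3 nearest profiles of each other, at a root mean square difference of 0.481. The others were Dnase1, at 0.477, and Gm9824 for Hsd11b1, and Azgp1 and Adamts15 for Srd5a2. By Pearson correlation, at 0.946 between them, neither Srd5a2 nor Hsd11b1 was among the 3 nearest of the other.

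Srd5a1 (chromosome 13, 69573449 to 69611485), the other reductase of testosterone, had 26.7, 23.6 and 48.7 CPM in VHL-KO and 15.3, 8.94 and 15.0 CPM in VHL-KO;SETD2-KO libraries. The female library was the lowest and VHL-KO replicate 4 the highest. Fitted over the 6 libraries, the log2 fold change was -1.33 (standard error 0.45), a 2.52-fold lower level. It was -0.95 without VHL-KO replicate 4, and without the female library it was -1.11 and no longer passed the unadjusted threshold, in a fit where 2.2% of tested genes were lower. The ratio of Srd5a1 to Srd5a2, per length, was 1.13, 3.17 and 5.56 in VHL-KO replicates 1, 2 and 4 and 8.74, 7.43 and 9.11 in VHL-KO;SETD2-KO replicates 2, 3 and 4. With the median transcript length in place of the longest, it ran from 3.36 to 27.1. The nearest profiles to Srd5a1 were those of Vps8, at 0.0521, Gm12678 and Gm11423.

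Srd5a3 (chromosome 5, 76140273 to 76155503), which is known for making the dolichol needed in protein glycosylation, had 12.2, 7.76 and 31.2 CPM against 10.5, 9.78 and 10.3 CPM. The labels overlapped, and only VHL-KO replicate 4 was high. Its log2 fold change of -0.74 (standard error 0.55) became 0.02 without that library. Near profiles were those of Hs1bp3, at 0.0548, and Zscan2.

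Akr1c21 (chromosome 13, 4574075 to 4586543), an aldo-keto reductase of androgens and other steroids, had 1318, 1254 and 566 CPM in VHL-KO replicates 1, 2 and 4. It had 687, 334 and 694 CPM in VHL-KO;SETD2-KO replicates 2, 3 and 4. The labels overlapped through VHL-KO replicate 4 alone, and the female library was the lowest of the 6. The log2 fold change was -0.87 (standard error 0.53). It was -1.17 without VHL-KO replicate 4, where Akr1c21 passed the unadjusted threshold with 7.15% of tested genes, and -0.59 without the female library. Akr1c21 belongs to a family of similar genes, so its counts are uncertain where reads could be shared. The nearest profiles were those of Me1, at 0.118, Sdc2 and Cks2.

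VHL-KO replicate 4 and the female library were also left out together, a fit chosen after the values had been seen, with 2 libraries per label. The log2 fold changes were then -2.86 for Hsd11b1, -0.73 for Srd5a1, -3.20 for Srd5a2 and -0.90 for Akr1c21. Nr3c2 was at 0.51, Hsd11b2 at 0.96, Nr3c1 at 0.12 and Srd5a3 at 0.04 on the same scale. No test is read from this fit for the members.

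Since summed proximal markers were lower in VHL-KO;SETD2-KO libraries, each member was expressed per 1000 counts of the 10 markers, a scale also chosen after the data had been seen. Slc34a1 alone gave 14180 of the 28370 CPM of this sum in VHL-KO replicate 4. Lrp2 and Slc5a12, at 938 and 53.6 CPM, were lowest of the 6 libraries there. Of the 10 markers, 9 had a log2 fold change below 0, Slc5a12 was at 0.50, and 4 were lower without overlap. How the scaled values depend on the choice of markers was not tested. On this scale Hsd11b1 was at 10.2, 3.69 and 3.58 in VHL-KO replicates 1, 2 and 4 and at 2.47, 2.13 and 1.53 in VHL-KO;SETD2-KO replicates 2, 3 and 4. The labels still did not overlap, with means 2.85-fold apart, or 1.78-fold without VHL-KO replicate 1. Srd5a2 was at 1.04, 0.343 and 0.188 against 0.176, 0.0786 and 0.138, with means 4.01-fold apart, or 2.03-fold without VHL-KO replicate 1. VHL-KO replicate 4 lay only just above VHL-KO;SETD2-KO replicate 2, a gap that 57 and 20 counts cannot resolve. Srd5a1 lost its separation, at 1.82 ± 0.113 and 1.85 ± 0.807 (SD, n = 3 each). Akr1c21 overlapped and turned from lower to slightly higher, at 70.3 ± 43.6 and 81.8 ± 40.8, or lower again without VHL-KO replicate 4 or VHL-KO;SETD2-KO replicate 2, with log2 ratios of means of -0.22 and -0.096. Srd5a3 turned as well, at 0.859 ± 0.257 and 1.40 ± 0.344, as did Hsd11b2, at 1.84 ± 2.37 and 4.14 ± 3.99 and level without the female library, and both overlapped. Nr3c1 was at 6.06 ± 4.77 and 15.9 ± 7.27 with overlap, and Nr3c2 was higher without overlap, at 0.434 ± 0.314 and 1.59 ± 0.354. The separation of Nr3c2 was fixed in advance, since its level was higher and the marker sum lower, each without overlap. Nothing is read from it. Proximal markers do not measure the distal cells where Hsd11b2 is normally expressed, so its scaled values say nothing about its level there.

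**Figure D3:**
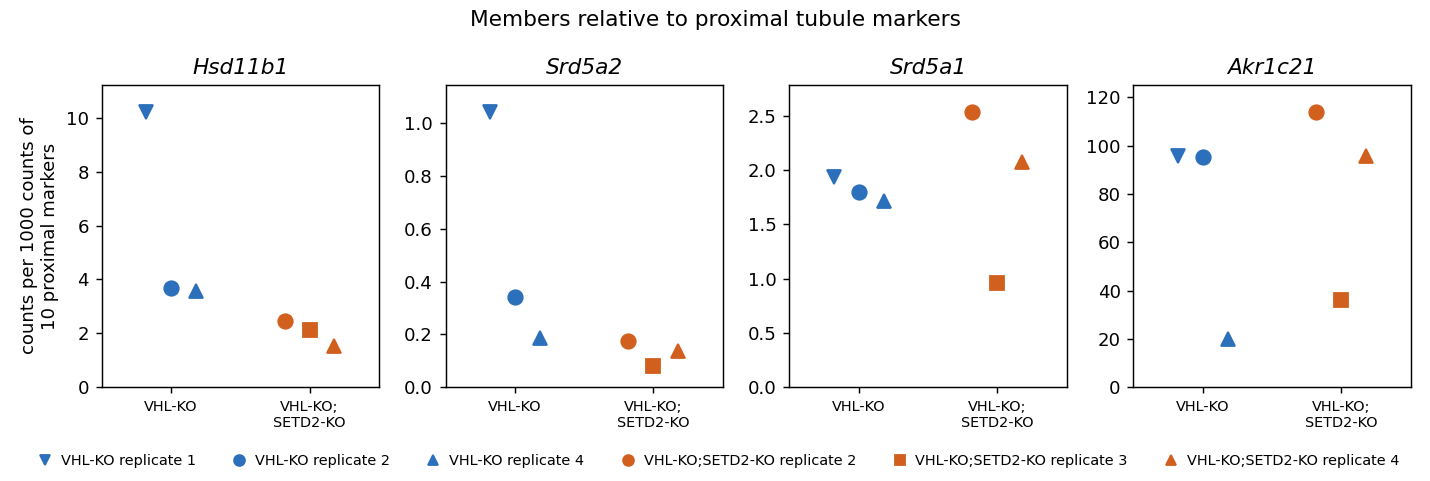
Counts of Hsd11b1, Srd5a2, Srd5a1 and Akr1c21 per 1000 counts of 10 proximal tubule markers, 1 point per library, by label. Hsd11b1 does not overlap between the labels, Srd5a2 comes within counting error in 1 pair of libraries, and Srd5a1 and Akr1c21 overlap.

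Several other enzymes of steroid metabolism were lower in VHL-KO;SETD2-KO libraries. Of 29 listed, 21 were tested, and 7 were called lower and 0 higher, with a median log2 fold change of -0.97 against 0.0094 for all tested genes. These were Hsd17b2, Hsd17b11, Hsd3b3, H6pd, Cyp7b1, Por and Cyb5a, each without overlap between the labels. Hsd17b2, which oxidises testosterone and oestradiol to weaker forms, had 16.9 ± 8.14 and 2.74 ± 1.65 CPM (SD, n = 3 each) and a log2 fold change of -2.62 (standard error 0.66). Hsd17b11 had 451 ± 100.1 and 125.9 ± 38.9 CPM. Por, which passes electrons to microsomal cytochromes P450, was at -1.90 (standard error 0.67) on the log2 scale, and Cyb5a, cytochrome b5, had 679 ± 60.3 and 340.0 ± 47.5 CPM. Hsd3b3, which has similar copies, was at -1.41 and the oxysterol hydroxylase Cyp7b1 at -1.52. Hsd17b4, a peroxisomal enzyme, had 197.6 ± 42.4 and 168.2 ± 44.3 CPM and was not called. DESeq2 called 1 of the 21 higher, where 418 of 14611 tested genes were. In edgeR the number called lower was 4, 4 and 3 without VHL-KO;SETD2-KO replicates 2, 3 and 4, and 11 without both libraries that stood apart. Over all tested genes the shares called lower in these fits were 1.37%, 2.2%, 1.78% and 10.4%. The part of the proximal markers in these counts was not tested.

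Enzymes of hormone synthesis in glands were mostly near or under the floor. Of 9 listed, 3 were tested and 0 called by edgeR. Cyp11b1, Cyp11b2 and Cyp21a1 of the adrenal cortex and the aromatase Cyp19a1 had 0 counts in every library. Fdx1, an electron carrier that the kidney also uses in vitamin D metabolism, had 48.2 ± 1.78 and 28.7 ± 3.26 CPM (SD, n = 3 each) without overlap, and Fdxr, its reductase, had 14.7 ± 14.2 and 10.1 ± 6.67 CPM. Fdx1 was called lower without VHL-KO replicate 4, where 7.15% of tested genes were.

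Other receptors and the receptors' partners gave 0 calls in edgeR. Of 8 receptors 7 were tested, with a median log2 fold change of -0.37, and DESeq2 called 1 lower, where 7.75% of all tested genes were. The orphan receptors Esrra, Esrrg and Esrrb had log2 fold changes of -1.24, 0.17 and -0.61, with standard errors of 0.64, 0.63 and 0.79. The number of receptors called lower was 1 without VHL-KO replicate 1 and 2 without VHL-KO replicate 4, where 982 of 15139 and 1073 of 15000 tested genes were lower. The 17 chaperones and coregulators had a median log2 fold change of 0.16. Hsp90ab1, a cytosolic chaperone of steroid receptors, had 1108 ± 40.6 and 1045 ± 106.1 CPM (SD, n = 3 each), and the log2 fold changes of Hspa8, Hsp90b1 and Hsp90aa1 were -0.38, 0.75 and 0.33.

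Genes known to be induced by glucocorticoids lie downstream of Nr3c1. All 15 were tested and 0 were called by edgeR, against 1 higher by DESeq2, and 0 were without overlap, with a median log2 fold change of 0.21. The number called higher was 2 without VHL-KO;SETD2-KO replicate 2 and 2 without replicate 4, where 179 of 15010 and 187 of 15088 tested genes were higher. DESeq2 called 418 of all 14611 tested genes higher. Pck1, which drives gluconeogenesis, had 2251 ± 483 and 1920 ± 1547 CPM (SD, n = 3 each), and Sgk1, a kinase induced by both corticosteroid receptors, had 267 ± 157.5 and 499 ± 96.2 CPM. The log2 fold changes of Dusp1 and Klf9 were 0.02 and 0.23. The female library departed from the rest in some of these genes, in both directions. Ddit4 and Nfkbia were lowest of the 6 libraries there, at 11.8 and 42.3 CPM. Dusp1 had 100.5 CPM there, against 313.5 and 336.1 CPM in VHL-KO;SETD2-KO replicates 2 and 4, but was lower still in VHL-KO replicate 4, at 77.6 CPM. Fkbp5, a receptor chaperone, had 13.7 CPM in the female library and 0.626 to 1.21 CPM in the other 5 libraries. Zbtb16, a transcription factor, had 74.7 CPM in the female library and 1.39 to 7.58 CPM in the others.

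Genes of the aldosterone-responsive distal nephron are read downstream of Nr3c2. Of 13 tested, 1 was called higher and 0 lower, where 2.66% and 4.68% of all tested genes were. The 1 called was the potassium channel Kcnj1, with 55.6 ± 33.0 and 172.4 ± 87.5 CPM (SD, n = 3 each) and a log2 fold change of 1.63 (standard error 0.63). The sodium channel subunit Scnn1b had 2.24, 5.36 and 53.0 CPM in VHL-KO replicates 1, 2 and 4 and 9.97, 44.4 and 10.9 CPM in VHL-KO;SETD2-KO replicates 2, 3 and 4. It was highest in the same libraries as Hsd11b2. Wnk1, a kinase that acts on distal salt transport, had 255.5 ± 156.2 and 613 ± 234 CPM without overlap. The log2 fold changes of the thiazide-sensitive cotransporter Slc12a3 and the sodium pump subunit Atp1b1 were 0.22 and 0.24. The number called higher was 5 without VHL-KO replicate 4, 0 without VHL-KO replicate 1 and 0 without the female library, where 8.29%, 1.31% and 2.37% of all tested genes were higher. Markers of intercalated cells summed to 13.0 to 45.2 CPM in VHL-KO and 51.8 to 124.0 CPM in VHL-KO;SETD2-KO libraries, without overlap, with 3 of 5 called higher, but 1 without VHL-KO replicate 1 and 0 without the female library. Markers of the distal convoluted tubule, a list that shares Slc12a3 and Wnk1 with this one, summed to 884 to 1842 CPM and 1335 to 3136 CPM, with 1 of 5, Calb1, called higher, and 0 without VHL-KO replicate 1 or the female library. Their part in the levels of Kcnj1 and Nr3c2 was not tested.

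**Figure D4:**
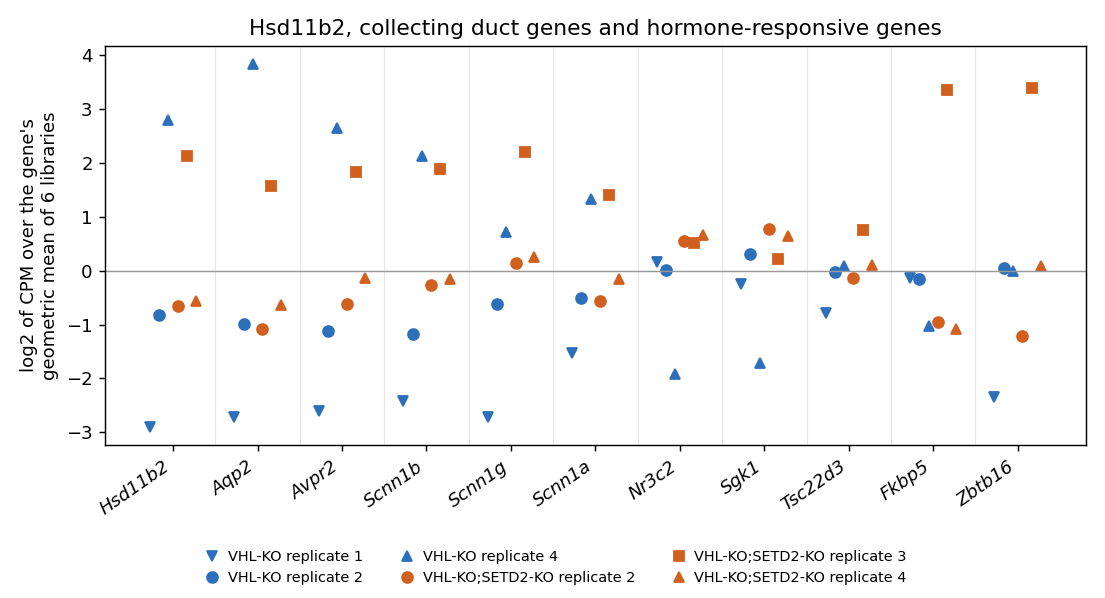
Level of Hsd11b2, collecting duct genes, Nr3c2 and hormone-responsive genes in each library, as log2 of CPM over the gene's geometric mean of the 6 libraries. Hsd11b2, Aqp2, Avpr2, Scnn1b, Scnn1g and Scnn1a are highest in VHL-KO replicate 4 and VHL-KO;SETD2-KO replicate 3, and Fkbp5 and Zbtb16 are high in VHL-KO;SETD2-KO replicate 3 alone. Aqp3, Aqp4 and Fxyd4 of the principal cell markers are not drawn.

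Of 9 androgen-responsive genes of the kidney, edgeR called 4 lower (Odc1, Gusb, Cyp4b1 and Cyp7b1) and 0 higher at the unadjusted threshold and 0 after adjustment. Over all tested genes the unadjusted shares were 4.68% lower and 2.66% higher, and 0.00684% were lower after adjustment. All 9 had a log2 fold change below 0, with a median of -1.91. Of the 9, 6 were lower without overlap, where 11% of all tested genes were. Odc1, the rate-limiting enzyme of polyamine synthesis, had 1240, 1816 and 2155 CPM against 476.9, 143.1 and 507 CPM, a log2 fold change of -2.21 (standard error 0.60). The log2 fold change of Cyp4b1 was -2.00 (standard error 0.63) and that of Gusb, beta-glucuronidase, was -1.30 (standard error 0.56). Kap, the kidney androgen-regulated protein, had 18260, 16160 and 7605 CPM in VHL-KO replicates 1, 2 and 4 and 6748, 1214 and 6954 CPM in VHL-KO;SETD2-KO replicates 2, 3 and 4, without overlap but not called.

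The female library was the lowest of the 6 for all 9 genes. Slc7a13, an amino acid transporter, had 2.42 CPM there and 214.1 to 1154 CPM in the other 5 libraries. In the male libraries labelled VHL-KO;SETD2-KO, 6 of the 9, Odc1 among them, were below each VHL-KO library, whereas Slco1a1, Slc22a30 and Slc7a13 were above VHL-KO replicate 4. Without the female library 2 of the 9 were called lower, with a median log2 fold change of -1.33, where 2.2% of all tested genes were. Without VHL-KO replicate 4 as well, 8 of the 9 were called lower, with a median of -1.48, where 10.4% of all tested genes were. Summed proximal markers were lower in VHL-KO;SETD2-KO than in VHL-KO libraries. Within the VHL-KO;SETD2-KO label the female library had the highest sum, at 9296 CPM, against 6034 and 7253 CPM in replicates 2 and 4. The part of these markers in the differences was not tested.

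**Figure D5:**
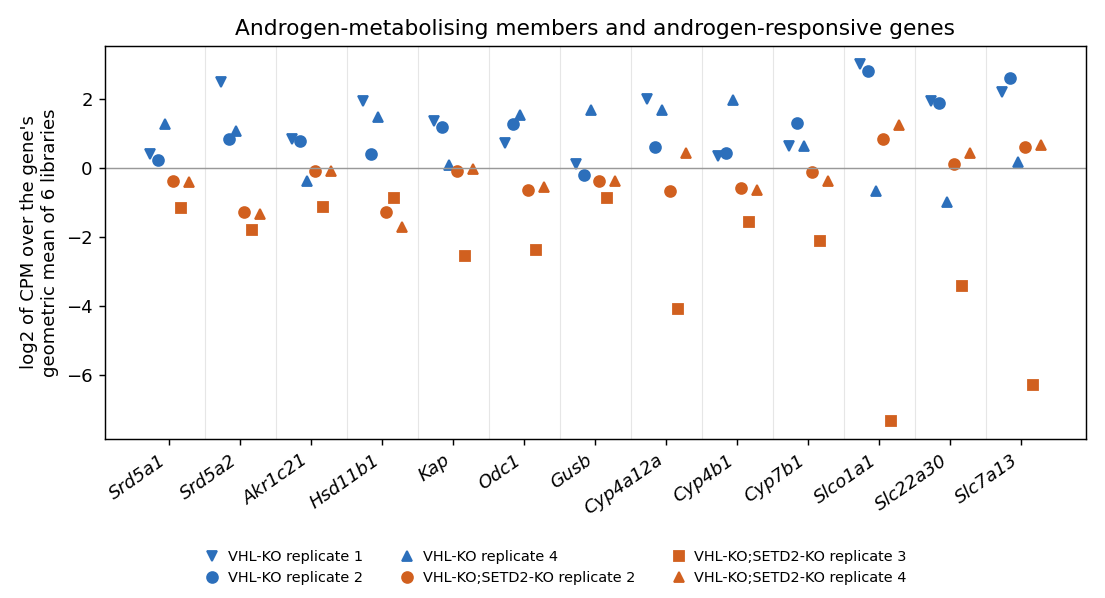
Level of Srd5a1, Srd5a2, Akr1c21, Hsd11b1 and the 9 androgen-responsive genes in each library, as log2 of CPM over the gene's geometric mean of the 6 libraries. VHL-KO;SETD2-KO replicate 3, the female library, is the lowest for the 9 responsive genes and for Srd5a1, Srd5a2 and Akr1c21, but not for Hsd11b1.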

How the data were processed

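RNA of PTECs was sequenced with directional, paired-end libraries. The authors deposited raw counts per gene symbol, and the submitters' processing notes name HISAT2 2.0.4 and GRCm38. The counting program, annotation and use of strand are not given in the sources used here.

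From the deposited counts, genes were filtered with filterByExpr, normalised with TMM factors and tested with the quasi-likelihood test of edgeR 4.0.16 (R 4.3.3), with genotype label as the only factor. Benjamini-Hochberg adjustment ran over 14611 genes. CPM used TMM-normalised totals and log2 CPM a prior count of 2. Fits were tested on simulated data. Lengths came from GENCODE on GRCm38, and coordinates and promoters from RefSeq on GRCm38.p6.

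Members and lists were chosen with earlier results of these data known. Named genes were the members, called genes and up to 4 most abundant genes of each list, and 3 nearest profiles per member among genes with a mean log2 CPM of at least 1. Slco1a1, Slc22a30, Slc5a12, Calb1, Scnn1a, Scnn1b, Scnn1g, Aqp2, Aqp3, Aqp4, Fxyd4, Fkbp5, Zbtb16, Ddit4, Nfkbia, Tsc22d3 and the undetected gland enzymes were chosen after their values were seen. Some genes that the rule names are not reported here. Alternatives were DESeq2's size factors, DESeq2 1.42.0, limma-voom (limma 3.58.1), no filter, a minimum of 10 counts per library, totals without the 20 highest genes, the replicate number as a block, and leaving out each library. Counts of every pair of libraries differed beyond sampling noise.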

Additional observations from a re-analysis of the deposited data

How the results depend on the processing

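Under all 15 alternatives Hsd11b1, Srd5a1, Srd5a2, Akr1c21 and Nr3c2 kept their direction. The log2 fold change of Hsd11b2 turned to 0.65 with limma-voom, 2.48 without VHL-KO replicate 4, 0.0246 and 0.0198 without VHL-KO;SETD2-KO replicates 2 and 4, 2.44 with DESeq2 without VHL-KO replicate 4, and 0.96 without both libraries that stood apart, and was lowest at -1.93 without VHL-KO;SETD2-KO replicate 3. Srd5a3 turned to 0.0176 without VHL-KO replicate 4, 0.0094 with DESeq2 without it and 0.0441 without both, with a low of -1.07 without VHL-KO replicate 2. Nr3c1 turned to -0.0885 and -0.0942 in the first and second of these fits, was at most 0.86 in other fits omitting 1 library (without VHL-KO replicate 1), and reached 1.56 with the replicate block. The cause was not tested. Of all tested genes, 388 were called higher and 684 lower, and 0 and 1 after adjustment. With each library left out these ranged from 179 to 1243, 206 to 1078, 0 to 0 and 0 to 1, members called lower from 2 to 4, and members without overlap from 1 to 2 higher and 3 to 4 lower. Labels separate more easily with fewer libraries, and the share of all genes without overlap was not counted in such fits. Nothing is therefore read from the overlap counts of any fit that leaves out libraries. DESeq2 called 1133 lower, and 1 higher and 50 lower after adjustment. No filter gave 634 higher, and 2 lower after adjustment, and at least 10 counts in every sample gave 0 lower after adjustment. A replicate block left 93 higher and 54 lower, with 0 members called. Same-numbered libraries had correlations of their deviations of 0.16 (replicate 2) and -0.32 (replicate 4), and no source says that the numbers pair mice. In fits chosen after the data had been seen, leaving out both libraries gave 1976 higher and 1532 lower, 1311 and 1164 after adjustment, with 4 members called after adjustment and 2 higher without overlap. DESeq2 without VHL-KO replicate 4 gave 1425 and 1093, 534 and 704 after adjustment, with 4 members. With median transcript lengths 4 of 8 members kept their place in the order per length, and likeness by Pearson correlation shared 4 of 24 nearest genes. Counts of 13 to 20 limit Srd5a2 under the VHL-KO;SETD2-KO label.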
